A study of Mus musculus with 15 samples.

Results

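The replication-dependent histone genes supply the histones that package newly copied DNA. In mouse carotid arteries 30 genes that bear the names of this family were followed. They are the genes whose older symbols begin with Hist1h, Hist2h, Hist3h or Hist4h and that have an array probe set naming a single gene. The table pairing probe sets with genes holds the newer symbols (H1f, H2ac, H2bc and H4c, among others), and 0 of its symbols begin with the older prefixes. The members were therefore found through the older names and gene numbers of a RefSeq gene table (assembly GRCm38.p6), which lists 70 genes with such names. Of these, 30 had an own probe set, among 22180 genes that did, and where a gene had several probe sets their mean was used.

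The arteries came from female C57Bl/6J mice aged 21 to 22 weeks, labelled wildtype or Has3-deficient. Has3 is an enzyme that makes hyaluronan, a sugar polymer of the tissue matrix. The left common carotid artery was tied off to induce growth of the inner vessel layer, and vessels were taken on day 5. The arrays comprised 4 wildtype non-ligated, 4 wildtype ligated, 4 Has3-deficient non-ligated and 3 Has3-deficient ligated arteries, the last numbered 3, 5 and 6 in the labels. From each, 100 ng of total RNA was amplified and hybridised to an array. The labels give neither the Has3 allele nor whether each sample is a separate animal, so the p-values speak only of how far these samples differ from each other, which may be technical.

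Replication-dependent histone genes lie in clusters, have no introns, and are transcribed mainly while a cell copies its DNA. Their messenger RNAs end in a stem-loop bound by the protein Slbp rather than in a poly(A) tail, and they decay quickly when DNA synthesis stops. The core histones H2A, H2B, H3 and H4 form the nucleosome, and the linker histone H1 binds the DNA where it enters and leaves. A ligated artery is known to contain dividing smooth muscle cells and immigrating immune cells, so histone transcripts are of interest there as products of the S phase.

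The members comprised 5 of 6 H1 genes, 8 of 20 H2A genes, 9 of 19 H2B genes and 8 of 13 H4 genes. None of the 12 H3 genes had an own probe set, and every H3 probe set names several near-identical genes. Of the members 22 belong to the Hist1 cluster on chromosome 13, 5 to the Hist2 cluster on chromosome 3, 2 to the Hist3 cluster on chromosome 11 and 1, H4f16 (Hist4h4), lies on chromosome 6. Membership rests on the names alone. The members H2af-ps2 (Hist1h2al) and H2bu1-ps (Hist3h2bb) are listed as pseudogenes, and whether the RNA of each member is made only in S phase was not tested. The 30 members are not independent features: 16 of them are also named by probe sets shared with near-identical histone genes, so the split of signal between neighbours of 1 family is uncertain.

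The stretch just before the start of these genes carries short motifs that are classical for histone genes, and 4 of these stretches are shown for members that rose after ligation, 1 from each histone type. They are the 250 bases before the start, from RefSeq on GRCm38.p6, printed 5′ to 3′ on the gene's strand. Capitals mark 3 motifs, searched on both strands. They are the letters TATAAA, as in a TATA box, the letters CCAAT, as in a CCAAT box (read as ATTGG where it lies on the other strand), and the octamer with the letters ATTTGCAT. The position of TATAAA differs: counted from the start, its first letter lies at -28 in H1f5, -10 in H2bc3 and -137 in H4c9, and H2ac10 has none. The windows are H1f5 at chr13:21780626-21780875, minus strand; H2ac10 at chr13:23533625-23533874, plus strand; H2bc3 at chr13:23746484-23746733, plus strand; and H4c9 at chr13:22041363-22041612, minus strand.
H1f5: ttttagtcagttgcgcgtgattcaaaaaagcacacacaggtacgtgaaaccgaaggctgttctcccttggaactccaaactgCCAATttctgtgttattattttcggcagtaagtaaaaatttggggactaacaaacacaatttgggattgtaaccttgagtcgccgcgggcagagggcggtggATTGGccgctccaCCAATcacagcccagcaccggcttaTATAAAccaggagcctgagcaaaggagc
H2ac10: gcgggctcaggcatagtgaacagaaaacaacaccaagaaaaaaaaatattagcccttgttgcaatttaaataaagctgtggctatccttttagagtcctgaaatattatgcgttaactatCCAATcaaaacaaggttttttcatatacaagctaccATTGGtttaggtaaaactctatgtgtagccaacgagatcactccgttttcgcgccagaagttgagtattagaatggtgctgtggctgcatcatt
H2bc3: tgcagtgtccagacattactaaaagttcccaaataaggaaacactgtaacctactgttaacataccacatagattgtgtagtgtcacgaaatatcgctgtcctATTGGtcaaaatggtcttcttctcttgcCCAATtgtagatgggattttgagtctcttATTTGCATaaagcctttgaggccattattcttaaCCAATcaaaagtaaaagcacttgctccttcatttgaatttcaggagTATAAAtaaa
H4c9: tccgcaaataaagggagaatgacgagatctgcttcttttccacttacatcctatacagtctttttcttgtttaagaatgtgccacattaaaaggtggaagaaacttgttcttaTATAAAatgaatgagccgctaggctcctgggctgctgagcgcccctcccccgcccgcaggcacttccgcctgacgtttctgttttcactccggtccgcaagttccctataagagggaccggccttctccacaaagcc

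A promoter window was given for 26 of the 30 members. CCAAT stood in 20 of these 26 windows (76.9%), against 37.5% of 27025 genes in the table. TATAAA stood in 13 (50.0%, against 14.3%) and the octamer, a binding site of Oct1, in 9 (34.6%, against 1.81%). The motifs followed the histone type: CCAAT was found in 5 of 5 H1, 7 of 7 H2A and 7 of 7 H2B windows but in 1 of 7 H4 windows, and the octamer in 4 of 7 H2A and 5 of 7 H2B windows but in 0 of 5 H1 and 0 of 7 H4 windows. The octamer stood in 3 of the 9 windows of members that rose after ligation in wildtype arteries and in 6 of the 17 windows of members that did not pass. For CCAAT these counts were 6 of 9 and 14 of 17, and for TATAAA 6 of 9 and 7 of 17. The windows of H2ac1 and H2bc1 overlap on opposite strands, as do those of H2ac12 and H2bc12. Sites in the shared stretch, the octamers among them, were counted for both H2A and H2B, so the windows are not independent. These are matches of letters and were not tested as binding sites.

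The deposited values are log2 values from which the median of each probe set over the 15 arrays has been taken away, so a value of 1 is a 2-fold higher signal than the middle array, and levels cannot be compared between genes. The targeted gene did not check the labels. Has3 stood at 0, -0.075, -0.019 and 0.22 in wildtype non-ligated, -0.084, 0.13, 0.58 and 0.0050 in wildtype ligated, 0.21, 0.41, -0.068 and -0.083 in Has3-deficient non-ligated and -0.23, -0.012 and 0.10 in Has3-deficient ligated arrays. "Has3-deficient" therefore follows the labels, and where the probe set lies relative to the deleted part is not known here. Centred values cannot show whether the smooth muscle markers of an artery are present, but 5 of 5 fell with ligation in both genotypes, while 5 of 5 macrophage and 4 of 4 neutrophil markers rose. The mean of 4 neuron markers (Th, Dbh, Snap25 and Stmn2) reached 3.93 in wildtype non-ligated array 2 and 5.88 in Has3-deficient non-ligated array 3.

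Ligation raised a minority of the histone genes in wildtype arteries. Of the 30 members 9 rose and 1 fell, and 20 did not pass (limma, 4 against 4 arrays, Benjamini-Hochberg adjusted p under 0.05 over 22180 genes). The share that rose was 30% where 13.2% of all genes rose, and the share that fell was 3.33% where 14.6% of all genes fell. The median change of the members was 0.08 log2 units, against 0.0055 over all genes, and 23 of 30 estimates were above 0. Histone types did not stand apart by count: 2 of 5 H1, 1 of 8 H2A, 3 of 9 H2B and 3 of 8 H4 genes rose. Leaving out 1 array at a time gave 7 to 10 passing members. The count was 7 without wildtype non-ligated array 2, the array with high neuron markers. The number of all genes that rose was 2925, and it was lower on leaving out any 1 wildtype array. It was 2588 without that array, within a range from 2553 (without ligated array 2) to 2807 (without ligated array 4). The part of neuron content in the count of passing members was not tested.

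**Figure D1:**
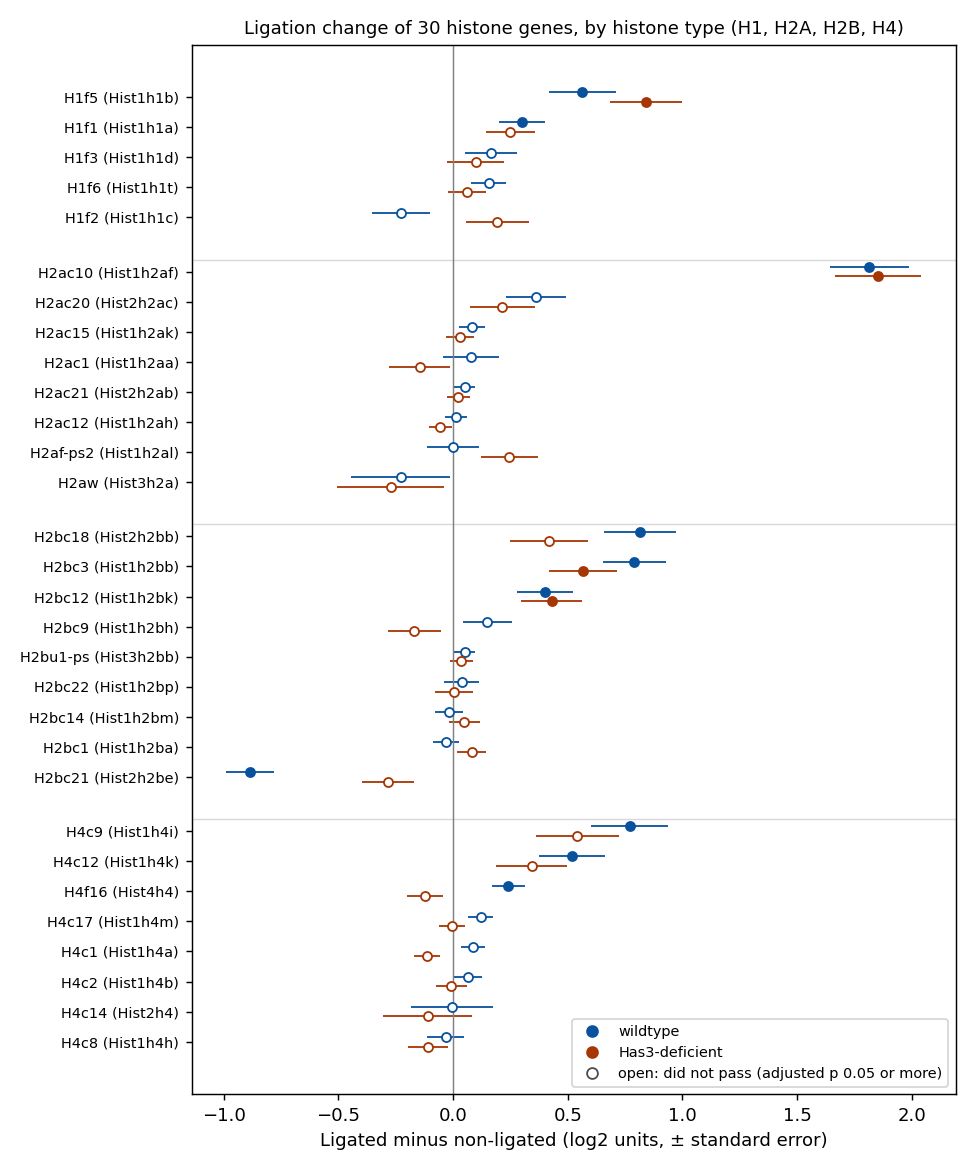
Change with ligation (ligated minus non-ligated, log2 units, with standard error) of the 30 histone genes, ordered by histone type, in wildtype (blue, 4 against 4 arrays) and Has3-deficient (red, 3 against 4 arrays) arteries. Filled points passed at an adjusted p under 0.05 over all genes; H2ac10 lies near 1.8 in both genotypes, H2bc21 falls in wildtype, and most other members lie near 0.

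Among the linker histones, H1f5 (Hist1h1b), a somatic H1 typical of dividing cells, rose in both genotypes. Its values were 0, -0.040, -0.16 and -0.058 in wildtype non-ligated and 0.47, 0.38, 0.46 and 0.69 in wildtype ligated arrays. They were -0.028, -0.13, -0.26 and -0.0032 in Has3-deficient non-ligated and 1.28, 0.41 and 0.52 in Has3-deficient ligated arrays 3, 5 and 6. Every ligated array lay above every non-ligated one, and the highest was Has3-deficient ligated array 3. The change was 0.56 ± 0.15 log2 units (± standard error, 1.48-fold, limma adjusted p = 0.00949) in wildtype and 0.84 ± 0.16 (1.79-fold, limma adjusted p = 0.00167) in Has3-deficient arteries.

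H1f1 (Hist1h1a) rose by 0.30 ± 0.10 log2 units in wildtype arteries (limma adjusted p = 0.0387), from between -0.18 and -0.072 in non-ligated to 0.090, 0, 0.50 and 0.017 in ligated arrays. The groups did not overlap, but the highest value is array 3 alone, and without it the change was 0.18 (limma adjusted p = 0.0868). The call was lost on leaving out any of 6 of the 8 wildtype arrays: each of the 4 non-ligated arrays and ligated arrays 1 and 3. Its change of 0.25 in Has3-deficient arteries did not pass (limma adjusted p = 0.140). H1f2 (Hist1h1c), a linker histone also made outside S phase, had estimates of -0.23 in wildtype (limma adjusted p = 0.221) and 0.19 in Has3-deficient arteries (limma adjusted p = 0.396). H1f3 (Hist1h1d) and the testis linker histone H1f6 (Hist1h1t) had changes of 0.17 and 0.16 in wildtype arteries and did not pass.

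The largest change of all members was that of H2ac10 (Hist1h2af), an H2A gene of the Hist1 cluster. It stood at -0.24, -0.40, -0.60 and -0.51 in wildtype non-ligated and 1.33, 1.44, 1.25 and 1.48 in wildtype ligated arrays. In Has3-deficient arteries it stood at -0.55, -0.55, -0.19 and 0 without and 2.07, 1.16 and 1.37 with ligation. The gap between the highest non-ligated and the lowest ligated array was wider than the spread within any group. The change was 1.81 ± 0.17 log2 units (3.52-fold, limma adjusted p = 2.8e-06) in wildtype and 1.85 ± 0.19 (3.61-fold, limma adjusted p = 6.58e-06) in Has3-deficient arteries. None of the other 7 H2A members passed in either genotype. H2ac20 (Hist2h2ac) came nearest, at 0.36 ± 0.13 in wildtype (limma adjusted p = 0.0551), and H2ac12 (Hist1h2ah) was nearly flat at 0.013 ± 0.047. H2ac10 is also named by 2 shared probe sets and cannot be fully separated from its near-identical relatives.

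Among the H2B genes, 3 rose and 1 fell in wildtype arteries. H2bc18 (Hist2h2bb) rose from -0.88, -0.16, -0.56 and -0.38 to 0.45, 0.46, 0.12 and 0.27, a change of 0.82 ± 0.16 log2 units (limma adjusted p = 0.00119). H2bc3 (Hist1h2bb) rose from -0.43, -0.43, -0.34 and -0.013 to 0.34, 0.59, 0.31 and 0.69, a change of 0.79 ± 0.14 (limma adjusted p = 0.000535). In both genes all 4 ligated arrays lay above all 4 non-ligated arrays. H2bc12 (Hist1h2bk) changed by 0.40 ± 0.12 (limma adjusted p = 0.0248), with arrays that overlapped: -0.080, -0.24, 0.10 and -0.45 without and 0, 0.34, 0.34 and 0.25 with ligation. This call was lost on leaving out any of 5 wildtype arrays (numbers 2 and 4 of the non-ligated and 2, 3 and 4 of the ligated), at changes between 0.31 and 0.40.

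H2bc21 (Hist2h2be), which encodes an H2B variant studied in mouse neurons, was the 1 member that fell. It is a member by its name, and whether its RNA is tied to S phase was not tested. Wildtype non-ligated arrays stood at 0.45, 0.37, 0.41 and 0.22 and wildtype ligated arrays at -0.34, -0.69, -0.64 and -0.43, so that the groups lay far apart. The change was -0.88 ± 0.10 log2 units (1.85-fold lower, limma adjusted p = 1.79e-05). Has3-deficient arrays stood at 0.30, -0.0087, 0.0035 and 0.091 without ligation and -0.40, -0.16 and 0 with it, and all but the first of each group lay between the wildtype groups. Their change was -0.28 ± 0.11 (limma adjusted p = 0.103). The 4 neuron markers had wildtype ligation changes with a median of -1.09 and none passed. H2bc21 stood at 0.0035 in the array with the highest neuron markers, and its change stayed between -0.95 and -0.83 in all 16 alternatives. The 5 smooth muscle markers also fell, with median changes of -0.97 (wildtype) and -0.63 (Has3-deficient). Their median genotype difference (Has3-deficient minus wildtype) was 0.37 with ligation, where H2bc21 had 0.34, and -0.022 without, where H2bc21 had -0.26. The median difference between their ligation changes was 0.34, against 0.60 for H2bc21. The part of neuron or smooth muscle content in the H2bc21 change was not tested. In these whole vessels fewer cells of a type and less RNA per cell cannot be told apart.

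Of the H4 genes 3 rose in wildtype arteries. H4c9 (Hist1h4i) stood at -0.52, -0.064, -0.46 and -0.18 without and 0.92, 0.73, 0.015 and 0.19 with ligation, a change of 0.77 ± 0.17 log2 units (limma adjusted p = 0.00311). Ligated arrays 1 and 2 were high, and array 3 lay just above the highest non-ligated array, without overlap. H4c12 (Hist1h4k) stood at -0.0025, -0.39, -0.35 and -0.22 without and -0.096, 0.46, 0.46 and 0.29 with ligation, a change of 0.52 ± 0.14 (limma adjusted p = 0.0140) in which ligated array 1 fell among the non-ligated ones. H4f16 (Hist4h4), the H4 gene outside the large clusters, changed by 0.24 ± 0.07 (limma adjusted p = 0.0240), from -0.17, -0.27, -0.12 and -0.11 to 0.034, 0.19, -0.026 and 0.11. Its 2 probe sets gave 0.20 (limma adjusted p = 0.308 over all probe sets) and 0.28 (limma adjusted p = 0.0434). Leaving out array 2 of the non-ligated or array 2 or 4 of the ligated wildtype group ended the H4f16 call, at changes of 0.20 to 0.23. H4c9 is also named by 5 shared probe sets and H4c12 and H4f16 by 4 each, so they cannot be fully separated from near-identical relatives. Shared probe sets naming 13 H4 genes had wildtype changes between 0.088 and 0.32 and did not pass. A shared probe set naming 6 H4 genes rose by 0.32 (limma adjusted p = 0.00487).

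**Figure D2:**
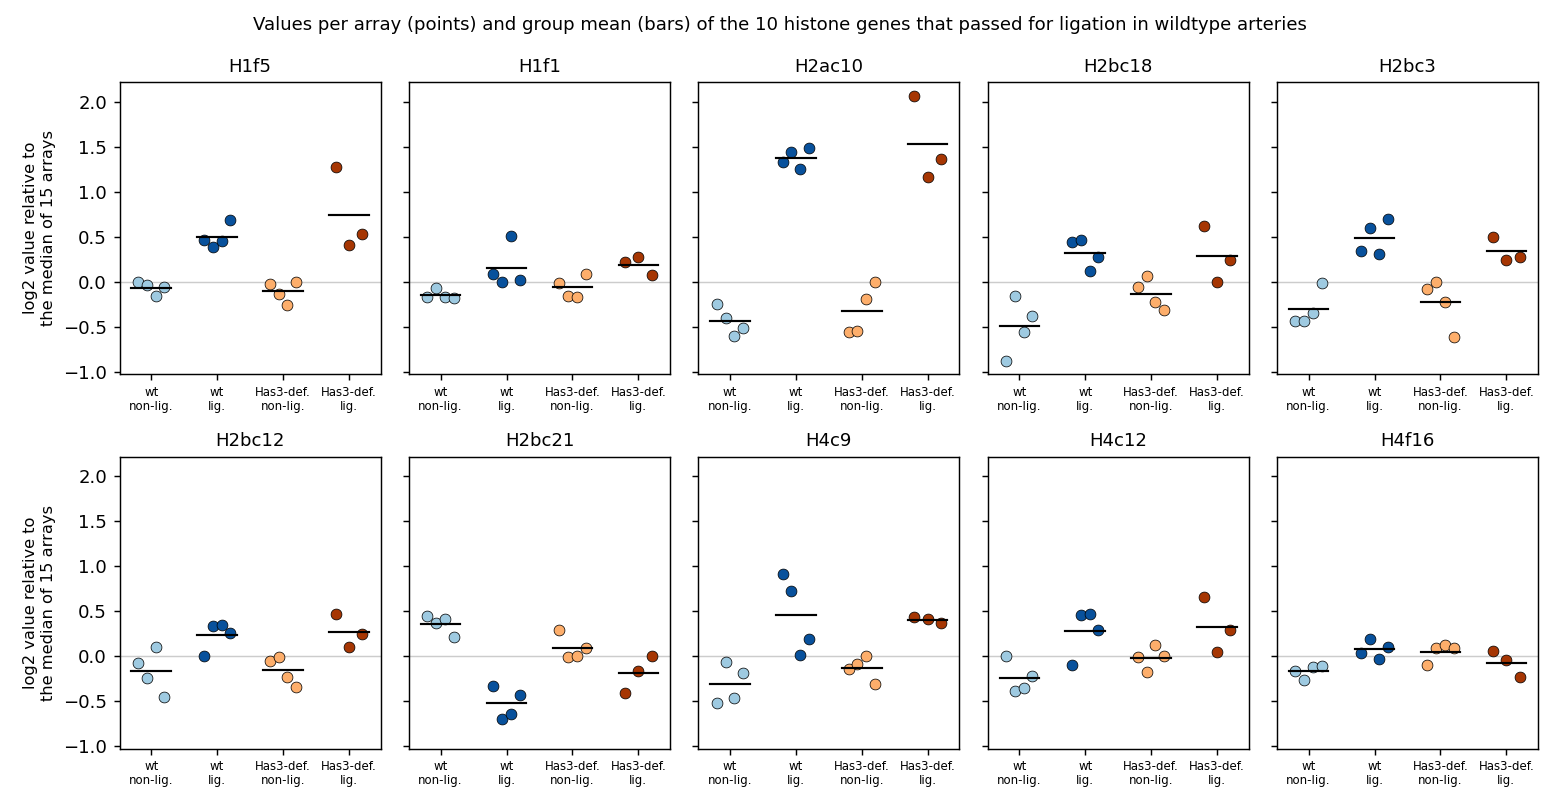
Values per array (points, log2 units relative to the median of the 15 arrays) and group means (bars) of the 10 histone genes that passed for ligation in wildtype arteries, in the 4 groups. H2ac10 shows the widest gap between ligated and non-ligated arrays, H2bc21 runs the other way, and Has3-deficient ligated array 3 is the highest of the 15 arrays for H1f5, H2ac10, H2bc12, H2bc18 and H4c12.

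The remaining members did not pass in either genotype. The testis forms H2ac1 (Hist1h2aa) and H2bc1 (Hist1h2ba) changed by 0.08 and -0.03 log2 units in wildtype arteries, and the pseudogene H2af-ps2 by 0.0016. H2bc14 (Hist1h2bm), H4c8 (Hist1h4h) and H4c14 (Hist2h4) had changes of -0.018, -0.03 and -0.0058. Over all 15 arrays 13 of 30 members (43.3%) spanned less than 0.5 log2 units, against 40.9% of all genes, from 0.18 for H2ac12 up to 2.67 for H2ac10. A small change did not always mean steady values, as H4c14 spanned 0.97 log2 units. H2aw (Hist3h2a), at -0.23 in wildtype and -0.27 in Has3-deficient arteries, spanned 1.06. Little signal and little change cannot be told apart in centred values.

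In Has3-deficient arteries ligation raised 4 members, and none fell. The share that rose was 13.3%, where 10.2% of all genes rose, and 8.08% of all genes fell. The members that rose were H1f5, H2ac10, H2bc3 (0.57 ± 0.15 log2 units, limma adjusted p = 0.0158) and H2bc12 (0.43 ± 0.13, limma adjusted p = 0.0373), and all 4 also rose in wildtype arteries. H2bc3 stood at -0.077, 0, -0.23 and -0.61 without and 0.49, 0.24 and 0.28 with ligation, and H2bc12 at -0.052, -0.0087, -0.23 and -0.34 without and 0.46, 0.10 and 0.25 with it. The groups did not overlap in either gene. Has3-deficient ligated array 3 was the highest of the 15 arrays, ties included, for 9 of 30 members, where it was so for 6.03% of all genes. Without it only H1f5 and H2ac10 passed, and the changes were 0.49 for H2bc3 (limma adjusted p = 0.0839) and 0.33 for H2bc12 (limma adjusted p = 0.177). Without non-ligated array 3, the one with the highest neuron markers, 3 members passed, and H2bc12 (0.41, limma adjusted p = 0.0683) did not. The H2bc12 call in Has3-deficient arteries held in 8 of 14 alternatives: it was also lost without non-ligated array 4 (limma adjusted p = 0.0900), without ligated array 6 (0.0850), with weighted arrays (0.0748) and in a fit of the compared groups alone (0.0507).

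The members that passed in wildtype arteries alone had mostly smaller estimates in Has3-deficient ones. Genes chosen for passing only in wildtype arteries tend to show this through the choice itself, so no weaker response is read from it. The Has3-deficient comparison also had only 3 ligated arrays. H2bc18 had 0.42 ± 0.17 log2 units (limma adjusted p = 0.112), H4c9 0.54 (limma adjusted p = 0.0543) and H4c12 0.34 (limma adjusted p = 0.158). H4c9 stood at -0.15, -0.090, 0 and -0.31 without and 0.44, 0.41 and 0.37 with ligation, and these arrays did not overlap. H4f16 alone among members that passed had the opposite sign, at -0.12 ± 0.08 (limma adjusted p = 0.356). Over the 30 members the median change was 0.04, against -0.030 over all genes, 19 estimates were above 0, and 16 members had estimates above 0 in both genotypes. Of the H4 genes 0 of 8 passed in Has3-deficient arteries, where 10.2% of all genes rose and 8.08% fell. With so few genes this count does not set H4 apart, and H4c9 lay close to the threshold.

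The difference between the 2 ligation responses was tested directly as an interaction, and 0 of 30 members passed, as did 0 of 22180 genes (0%). At an unadjusted p under 0.05 there were 4 members, against 1802 of all genes. The lowest p was that of H2bc21, whose response was 0.60 ± 0.15 log2 units higher in Has3-deficient than in wildtype arteries (95% interval 0.27 to 0.93, limma adjusted p = 0.440). H4f16 followed at -0.36 ± 0.11 (interval -0.60 to -0.13, limma adjusted p = 0.472), then H4c1 (Hist1h4a) at -0.20 (limma adjusted p = 0.543) and H1f2 at 0.42 (limma adjusted p = 0.600). These intervals are not adjusted for the number of genes. For H2ac10 the interval of the difference ran from -0.51 to 0.58 and for H1f5 from -0.18 to 0.74, so differences within these ranges were not excluded. Of the genes called in wildtype arteries alone, H2bc21 and H4f16 are given above. For the others the interval was -0.90 to 0.10 (H2bc18), -0.76 to 0.31 (H4c9), -0.63 to 0.28 (H4c12) and -0.37 to 0.27 (H1f1).

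Has3-deficient and wildtype arteries were also compared in each state of the vessel. Without ligation 0 of 30 members passed, where 0.0857% of all genes did, and 4 members had an unadjusted p under 0.05, against 2979 of all genes. H4f16 was 0.22 log2 units higher in Has3-deficient arteries (limma adjusted p = 0.223), H2bc18 0.36 higher (limma adjusted p = 0.340) and H2ac21 (Hist2h2ab) 0.10 higher (limma adjusted p = 0.369), while H2bc21 was lower at -0.26 (limma adjusted p = 0.288). In ligated arteries 0 of 30 members and 0% of all genes passed, and 1 member, against 910 of all genes, had an unadjusted p under 0.05. That member was H2bc21, at 0.34 ± 0.11 log2 units (limma adjusted p = 0.9999). The median differences of the members were 0.08 without and 0.0098 with ligation.

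Probe sets that name several histone genes hold most of the H2A, H2B and H3 genes that could not be members, and 38 of them name histone genes of this kind alone. They were fitted among all 33793 probe sets. Ligation in wildtype arteries raised 11 of 38 (28.9%, where 10.7% of all probe sets rose) and lowered 0 (11.3% of all probe sets fell): 5 of 11 for H2A, 3 of 9 for H2B, 2 of 12 for H3 and 1 of 5 for H4. In Has3-deficient arteries 8 of 38 rose (21.1%, where 7.74% of all probe sets rose) and 0 fell (5.81% of all probe sets fell): 5 for H2A, 2 for H2B and 1 for H3. In the genotype comparisons and the interaction 0 of 38 passed, where 0.0533% of all probe sets passed for genotype in non-ligated arteries and 0% in the other two. At an unadjusted p under 0.05 there were 10 of 38 for genotype in non-ligated arteries, 0 in ligated arteries and 3 for the interaction. All probe sets were not counted at that level, and in the gene fit it was 2979 of 22180 genes for genotype in non-ligated arteries. The probe sets are not independent, since 3 pairs gave almost the same values in every array. Both probe sets rose in both genotypes in the H2A pair 17285703 and 17291023 and the H2B pair 17285710 and 17291014. Each such pair thus counts double in the shares that rose.

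The largest change among these histone probe sets belonged to an H2A probe set that names 10 genes of the Hist1 cluster (17285867). It stood at -0.28, -0.43, -0.28 and -0.46 in wildtype non-ligated and at 1.97, 2.21, 1.04 and 2.14 in wildtype ligated arrays, with array 3 the lowest of the ligated ones. The change was 2.20 ± 0.24 log2 units (4.61-fold, limma adjusted p = 1.44e-05) in wildtype and 2.18 ± 0.26 (limma adjusted p = 5.09e-05) in Has3-deficient arteries. Probe sets with the same gene names did not move alike. Of 7 probe sets that name these same 10 H2A genes, the wildtype changes were 2.20, 1.17, 0.51, 0.16, 0.067, 0.029 and 0.0015. A gene name in this family therefore does not fix the measured change.

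For H3 the same held. A probe set naming 8 H3 genes (17400555) rose from -0.46, -0.47, -0.55 and -0.47 to 0.68, 0.66, 0.59 and 0.41 in wildtype arteries, with no overlap. Its change was 1.07 ± 0.12 log2 units (2.1-fold, limma adjusted p = 1.56e-05), and 0.86 ± 0.13 (limma adjusted p = 0.000348) in Has3-deficient arteries. The other 7 probe sets that name these 8 genes had wildtype changes between -0.014 and 0.16. A probe set naming 4 other H3 genes (17285680) changed by 0.55 ± 0.13 (limma adjusted p = 0.00565) in wildtype and by 0.22 (limma adjusted p = 0.360) in Has3-deficient arteries.

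Among the H2B probe sets, 17285691 and 17290997 differed by array in Has3-deficient non-ligated vessels. The first stood at -0.65, -0.88, -0.87 and -1.17 in wildtype non-ligated and 0, 0.38, 0.28 and 0.16 in wildtype ligated arrays, a change of 1.10 ± 0.42 log2 units that did not pass (limma adjusted p = 0.0801). In Has3-deficient non-ligated arrays it stood at -0.61, -0.56, 1.81 and 0.89, and the second at -0.70, -0.78, 1.61 and 0.85. Arrays 3 and 4 were thus far above arrays 1 and 2. They are also the arrays of that group highest in the mean of neuron markers, at 5.88 and 2.99, against 1.64 and -0.019. The same arrays were highest in fat markers (0.44 and 1.55, against 0.18 and -0.31) and in macrophage and neutrophil markers. In smooth muscle markers they were lowest (-0.0043 and 0.23, against 0.40 and 0.37), so neurons were not the only content that differed. In wildtype non-ligated arteries the neuron mean and these probe sets did not go together. Array 2, with a neuron mean of 3.93, stood at -0.88 and -0.89 in these probe sets, among the low wildtype arrays. The part of any of these cell types in the signal was not tested. Another H2B probe set (17285710), which names the same 12 genes as the first, changed by 0.73 ± 0.10 (limma adjusted p = 0.000106) in wildtype and 0.54 ± 0.11 (limma adjusted p = 0.00418) in Has3-deficient arteries.

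**Figure D3:**
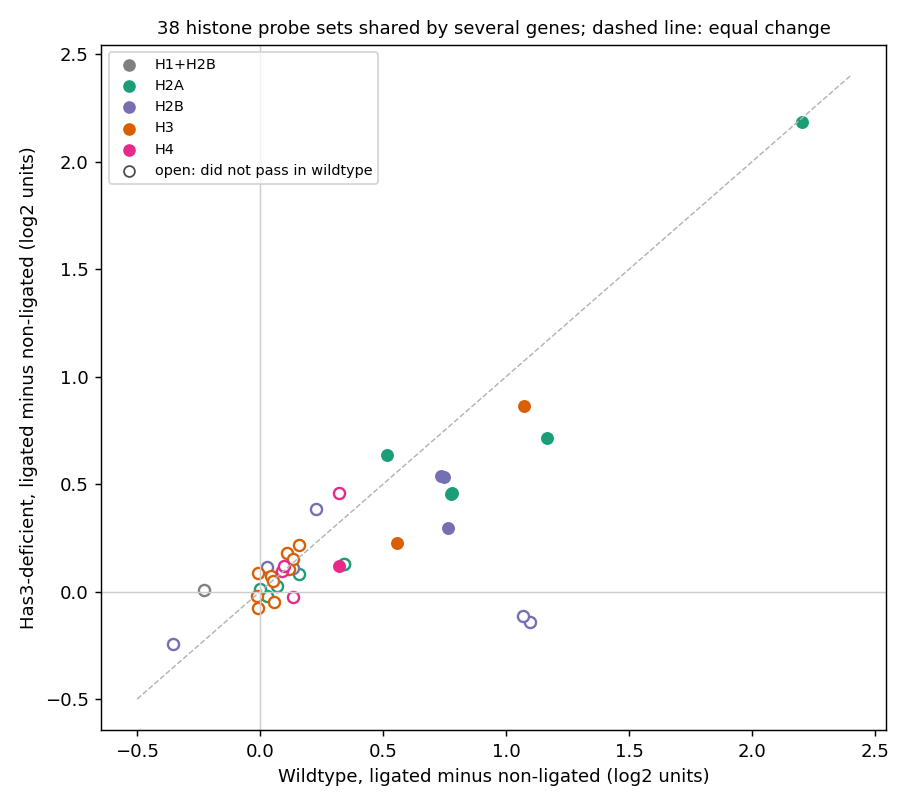
Change with ligation (log2 units) of the 38 histone probe sets that name several genes, in wildtype (horizontal) against Has3-deficient arteries (vertical), coloured by histone type, with filled points for those that passed in wildtype. The H2A probe set at 2.20 and 2.18 lies farthest out, and the pair of H2B probe sets near 1.1 in wildtype and just below 0 in Has3-deficient arteries stands off the line of equal change.

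Of the members 8 pairs lay next to each other in the gene table, and their wildtype changes were alike in some pairs and unlike in others. On chromosome 13 H4c8, at -0.03 log2 units, lies beside H2ac10, at 1.81, and H2ac12, at 0.013, beside H2bc12, at 0.40. H4c12, at 0.52, lies beside H2ac15 (Hist1h2ak), at 0.08. Neither member passed in the pairs H4c2 (Hist1h4b) and H4c1, at 0.065 and 0.085, and H2bc1 and H2ac1, at -0.03 and 0.08. The promoter windows of H2ac12 and H2bc12 overlap, since the genes start close together and run in opposite directions. H2bc12 in turn neighbours H4c9, at 0.77, and both rose. In the Hist2 cluster H2ac20, at 0.36 and not passing, lies beside H2bc21, at -0.88, and on its other side beside H2ac21, at 0.05. By cluster, 7 of 22 Hist1 members rose and none fell, and of the 5 Hist2 members 1 rose and 1 fell, where 13.2% of all genes rose and 14.6% fell.

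Genes that make and handle histone RNA were counted beside the same shares of all genes, 13.2% higher and 14.6% lower with ligation in wildtype and 10.2% and 8.08% in Has3-deficient arteries. Of 19 genes of histone RNA 3′ end processing and turnover 3 rose and none fell in wildtype arteries, and 4 rose in Has3-deficient ones (15.8% and 21.1%, the first close to the share of all genes). Slbp, the stem-loop binding protein, rose by 0.33 ± 0.07 log2 units (limma adjusted p = 0.00233) and 0.28 ± 0.07 (limma adjusted p = 0.0162), Tut7, which adds uridines to RNA ends, by 0.51 and 0.67, and Eri1, a nuclease that trims the stem-loop, by 0.57 and 0.71. Of 12 genes of histone transcription 3 rose and 2 fell in wildtype arteries (25% and 16.7%). E2f1, a transcription factor of S phase entry, rose by 0.69 ± 0.11 and Cdk2, a kinase of S phase, by 0.39 ± 0.07, while Npat, the coactivator of histone genes, fell by 0.33 on the log2 scale (limma adjusted p = 0.00803) and had -0.035 (limma adjusted p = 0.856) in Has3-deficient arteries.

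Of 20 histone chaperones and assembly factors 4 rose and 5 fell in wildtype, and 6 rose and 2 fell in Has3-deficient arteries (20% and 25%, then 30% and 10%, beside the same shares of all genes). The replication-coupled chaperone Asf1b rose by 0.96 ± 0.11 log2 units and Chaf1b, a subunit of chromatin assembly factor 1, by 0.79 ± 0.09, while Asf1a, the paralogue of Asf1b, fell by 0.75 on the log2 scale (limma adjusted p = 1.25e-05). Of 9 genes listed as replication-independent histone variants 4 rose and 1 fell in wildtype arteries (44.4% and 11.1%). In Has3-deficient arteries 2 rose and 1 fell (22.2% and 11.1%). Whether their RNA was made outside S phase was not tested. H2ax, the H2A variant of the DNA damage response, rose by 1.47 ± 0.10 and Cenpa, the H3 variant of centromeres, by 1.05 ± 0.11, whereas H2az2 fell by 0.41 on the log2 scale (limma adjusted p = 0.0105). H2ax and Cenpa also rose in Has3-deficient arteries, by 1.22 and 0.95.

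Genes of dividing cells were set beside the histone genes. Of 23 genes of DNA replication 20 rose and 1 fell in wildtype arteries, with a median of 0.43 log2 units, and all 19 mitosis genes rose, with a median of 1.37. In Has3-deficient arteries 17 of 23 and 19 of 19 rose. Pcna, the sliding clamp of DNA polymerase, rose by 0.63 ± 0.12 and 0.73 ± 0.13, and Mki67, a marker of cycling cells, by 2.45 ± 0.17 and 2.54 ± 0.18 in wildtype and Has3-deficient arteries. The median of the 30 histone genes lay between -0.084 and -0.015 in wildtype non-ligated arrays and between 0.0083 and 0.047 in wildtype ligated arrays, without overlap. In Has3-deficient arteries it lay between -0.014 and 0 without and between 0.039 and 0.11 with ligation. For the replication genes the mean of each array, a different summary, ran from -0.21 to -0.094 in wildtype non-ligated and from 0.19 to 0.40 in wildtype ligated arrays. The difference between the lists was not tested.

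**Figure D4:**
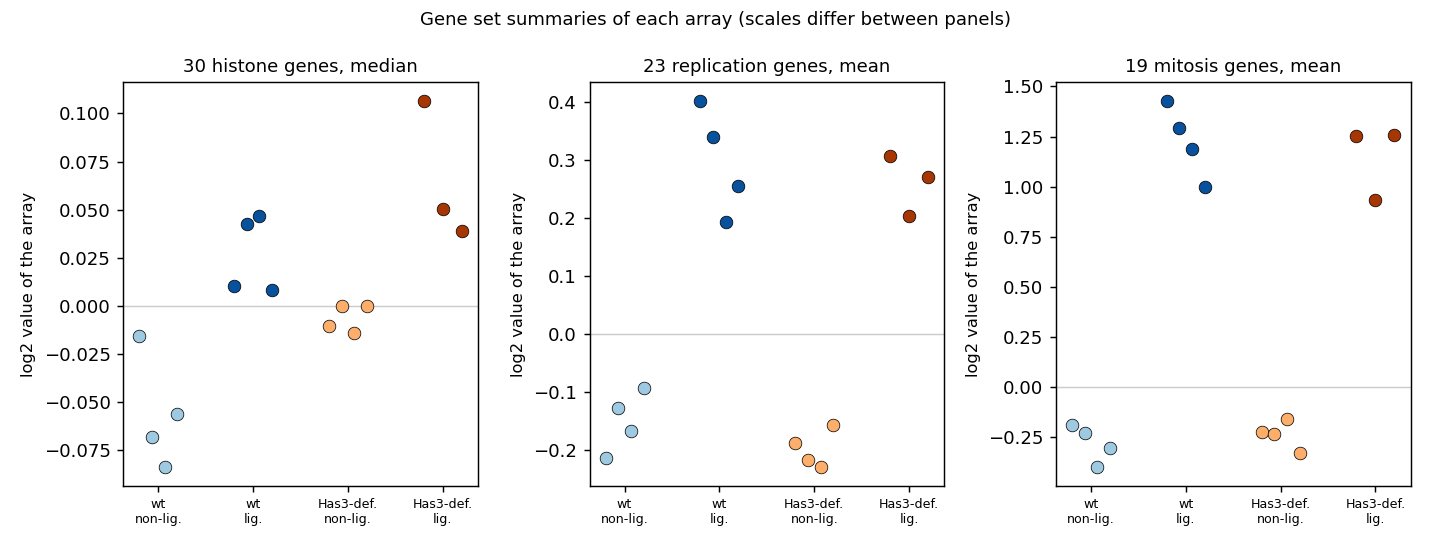
Summary of each array (points, log2 units) in the 4 groups: the median of the 30 histone genes, and the means of 23 DNA replication genes and of 19 mitosis genes, each panel on its own scale. In all 3 panels the ligated arrays lie above the non-ligated arrays of the same genotype, by a few hundredths for the histone genes and by more than 1 for the mitosis genes.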

How the data were processed

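Carotid artery RNA was measured on 15 Affymetrix arrays, per the labels. The authors deposited 1 table of log2 values of 33793 probe sets, in which each probe set has a median of 0 over the arrays, so levels are lost. The log base was read from the steps between stored values and is not stated. How arrays were normalized, with which software and annotation, is not given in the sources used here. No depth applies to arrays, and the number of arrays limits the precision.

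Of the probe sets, 23521 carried 1 gene symbol, 1814 several and 8458 were unlisted. Probe sets of a gene were averaged (22180 genes, no filter on low values). The 4 groups were fitted in 1 model by limma (version 3.58.1, R 4.3.3) with moderated variances (residual degrees of freedom 11, prior 2.69), and p-values were adjusted over all genes. The shared histone probe sets were fitted in the same way over all probe sets, a step added after seeing that H3 genes had no own probe set. The fit was tested on simulated data.

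The members, gene lists and tests were chosen with earlier results of these data known. Genes were named by rule: per histone type up to 4 members with the lowest and 2 with the highest p for wildtype ligation, up to 4 with the lowest p in the genotype comparisons and the interaction, members passing with opposite signs, testis-type members, H1f2, and up to 4 genes per other list. The shared probe sets described singly, and the comparisons between neighbouring genes, were chosen after their values were seen. Of 154 list genes 141 were measured; H3f3a and H3f3b have no own probe set and are not named. Alternatives were quantile normalization, centring each array on its median, weighting arrays, a fit of the compared groups alone, a robust prior, the most variable probe set, added shared probe sets, a replicate block and leaving out each array. All arrays entered the reported comparisons.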

Additional observations from a re-analysis of the deposited data

Results flagged for a closer look

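In 5 of 90 groups of 4 arrays 1 array of a member lay far from the other 3, and chance alone flags about 1 in 20 groups. Wildtype ligated array 3 accounts for 3 of them: H4c1 at 0.136 (others 0 to 0.018), H4c17 (Hist1h4m) at 0.17 (others 0 to 0.021) and H4c14 at -0.3536 (others 0 to 0.051). H1f1 stood at -0.07202 in wildtype non-ligated array 2, where the others lay between -0.18 and -0.17. H4f16 stood at -0.09941 in Has3-deficient non-ligated array 1, where the others lay between 0.088 and 0.12.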

How the results depend on the processing

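No member and no summary reversed its call under the alternatives run. With shared probe sets added, each under its first gene, members passing rose from 10 to 20 of 51 in wildtype ligation and from 4 to 10 in Has3-deficient ligation, and the median changes from 0.0835 to 0.1485 and from 0.0427 to 0.0947 log2 units; more features were tested there. Leaving out each array in turn gave 7 to 10 passing members for wildtype ligation, 2 to 4 for Has3-deficient ligation (2 without Has3-deficient ligated replicate 3) and 0 in the other comparisons. The medians then ranged from 0.0847 to 0.1116 for wildtype ligation, 0.0297 to 0.0605 for Has3-deficient ligation, 0.0523 to 0.0805 for genotype in non-ligated arteries, -0.0310 to 0.0557 for genotype in ligated arteries and -0.0816 to -0.0394 for the interaction. Under quantile normalization the median for genotype in ligated arteries moved from 0.0098 to 0.0503; the cause was not tested. H1f5, H2ac10, H2bc3, H2bc18, H2bc21, H4c9 and H4c12 passed for wildtype ligation in all 16 alternatives, H1f1 in 8, H2bc12 in 11 and H4f16 in 13. H4c9 passed in Has3-deficient arteries under 3 alternatives, and H2ac20 in wildtype arteries under 5.

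With the replicate block, the wildtype ligation count was 11 (9 higher, 2 lower) in place of 10, as H1f1 was lost (limma adjusted p = 0.103) and H1f2 and H2ac20 were gained; among shared probe sets it was 13, and for genotype in non-ligated arteries it stayed at 0. Equal replicate numbers were not shown to pair the arrays: same-numbered wildtype arrays correlated by 0.028 to 0.16 in their deviations from the group means, with 3 of 4 best with their own number, and genotype pairs by -0.40 to -0.23. No paired analysis was possible for comparisons with Has3-deficient ligated arrays because the groups share fewer than 2 numbers.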
